A study of Mus musculus with 15 samples.

Results

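The subject here is the response of male mouse tibialis anterior muscle to the LSMEM2 C-del vector, measured as C-del against mock in the count table of the male libraries. The 8 libraries of that table, 4 C-del and 4 mock, were taken out of 15 in the series; the other 7 are female libraries in a table of their own. Every gene with enough counts was examined, 14543 of 42396 entries. In the study, hindlimbs of adult C57BL/6 mice received adeno-associated virus of serotype 6, a vector that infects muscle fibres well. The virus carried either LSMEM2 C-del or, as mock, EGFP (a green fluorescent protein), and RNA of the tibialis anterior, the fast muscle that lifts the foot, was taken 2 months later. Both groups had therefore received virus, and no uninjected muscle entered the comparison. The labels do not say what C-del stands for, which promoter drives either insert, or how many animals gave the libraries, so p-values measure only the spread between libraries, which may be technical. The labels call the tissue skeletal muscle, while the extraction text speaks of hearts.

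A muscle fibre is built of sarcomeres whose thin filaments are anchored at Z-discs, and it meets its energy needs from glycogen, blood glucose, fatty acids and amino acids through enzymes of the cytosol and the mitochondria. Mitochondrial carriers of the SLC25 family move nucleotides, metabolites and ions across the inner membrane. Old or damaged proteins are tagged with ubiquitin and broken down by the proteasome, and hormones acting through insulin receptor substrates, cyclic AMP or STAT factors tune these processes. LSMEM2 is a leucine-rich membrane protein with a single membrane-spanning stretch, which the series places at the neuromuscular junction and in relation to mitochondria.

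Reads assigned to Lsmem2 (chr9:107592626-107597990, GRCm38.p6) stood at 29.7, 29.5, 29.2 and 28.5 CPM (counts per 1000000 counts of the library) in mock libraries 1 to 4 and at 481, 2355, 1865 and 1287 CPM in C-del libraries 1 to 4. Library numbers are column numbers of the table. All 4 C-del libraries were far above all mock libraries, with C-del library 1 the lowest and C-del library 2 the highest of them. The fitted log2 fold change was 5.68 (SE 0.57, adjusted p = 0.00223).

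The 8 libraries held 14297600 to 17744000 counts each. Defining markers of skeletal muscle (Acta1, Ckm and 8 others) summed to 155500 to 179000 CPM. Of 12 heart markers, the 3 with enough counts to test summed to 7.97 to 14.3 CPM. Another 6 had too few counts to test, and Nppb, Nkx2-5 and Gata4 were at 0 in all 8 libraries. Neighbouring columns of a group resembled each other more than other columns did. Spearman's rank correlation over the genes tested was 0.993 to 0.995 for the 4 neighbouring pairs (1 with 2, and 3 with 4, in each group), 0.989 to 0.992 for the other 8 pairs within a group and 0.984 to 0.990 for the 16 pairs between groups. Macrophage markers split the same way. The summed level of the 21 tested was 287 and 320 CPM in C-del libraries 1 and 2. It was 97.0 and 116 CPM in C-del libraries 3 and 4, against 114 to 134 CPM in mock. For this reason many results are followed by the fit in which neighbouring columns were summed, which leaves 2 values a group, called the summed fit below; of 186 called genes followed through all fits, it kept 84. What the neighbouring columns share is not given in the labels.

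Of the 14543 genes, 1624 (11.2%) differed between the groups at an adjusted p under 0.05 (edgeR's quasi-likelihood test, Benjamini-Hochberg over all genes tested). The calls were balanced, with 843 genes higher in C-del (5.8%) and 781 lower (5.37%), and most were small. The median change was 1.253-fold among genes called higher and 1.30-fold among genes called lower; 62 genes rose and 48 fell by 2-fold or more, and 11 rose and 2 fell by 4-fold or more. The median log2 fold change of all genes was -0.00475. Calls became more frequent with level. In the bin of lowest level 1.48% were called higher and 2.23% lower, and in that of highest level 11.8% and 8.01%. Shares of gene lists below are set beside all genes and are not matched for level. In 1316 genes (9.05%) the lowest C-del library lay above the highest mock library. In 1238 (8.51%) the highest C-del library lay below the lowest mock library. Of these, 787 and 715 also passed the test. Most called genes therefore do not overlap between groups, and a lack of overlap given below adds little to a call. In the summed fit 270 genes were called (1.68% of 16025 tested), 259 of them among the 1624 and in the same direction.

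**Figure D1:**
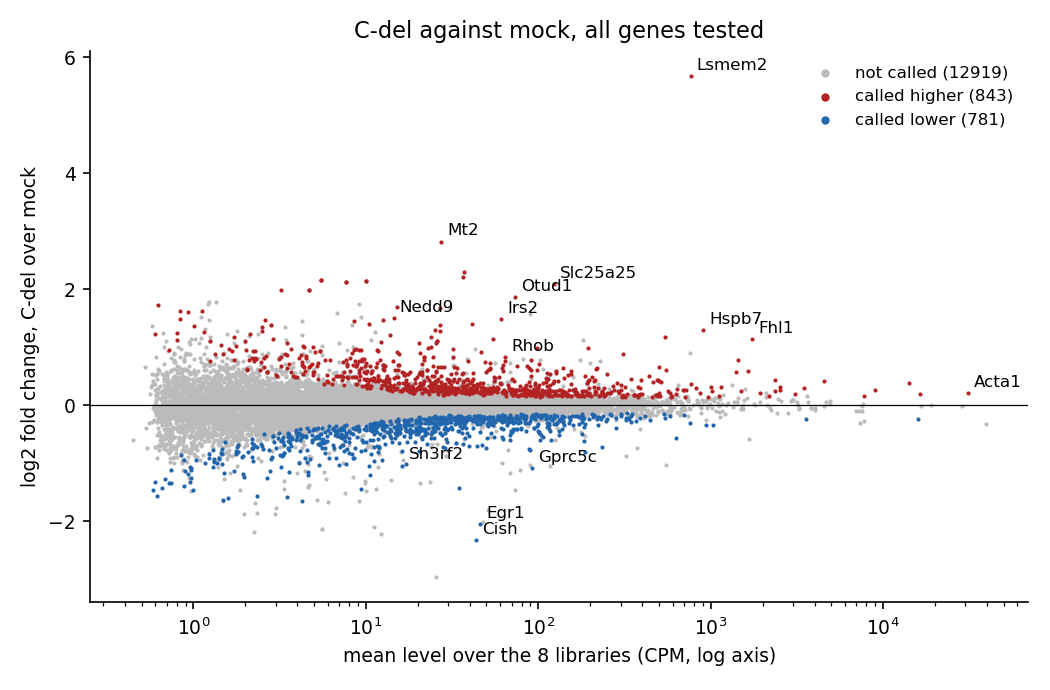
Log2 fold change of C-del over mock (vertical axis) against the mean level in CPM on a log axis (horizontal axis) for the 14543 genes tested; each point is a gene, red where called higher (843), blue where called lower (781) and grey where not called. Most called genes lie within 1 log2 unit of 0, and Lsmem2 stands highest at 5.68.

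Among the genes called higher with the smallest p-values were several that encode signalling and cell-shape proteins. Rhob, a small GTPase that acts on actin and endosomes, measured 45.4, 48.2, 43.3 and 46.9 CPM in mock and 81.4, 78.1, 81.6 and 85.2 CPM in C-del. The groups did not overlap, and the log2 fold change was 0.83 (SE 0.052, adjusted p = 3.7e-07; 0.00311 in the summed fit). Nedd9, a docking protein of focal adhesions, measured 7.24, 7.24, 7.91 and 7.78 CPM in mock and 22.8, 23.6, 21.2 and 17.97 CPM in C-del, a rise of 1.502 on the log2 scale (SE 0.095, adjusted p = 3.9e-07; 0.00311 in the summed fit). Here too every C-del library was above every mock library. Errfi1, a feedback inhibitor of the EGF receptor, went from 15.3, 13.8, 18.3 and 15.4 CPM in mock to 28.5, 27.3, 27.5 and 28.3 CPM in C-del, with a log2 fold change of 0.83 (SE 0.077, adjusted p = 1.3e-05). C-del libraries were tightly grouped for this gene and all above mock.

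Bcl2l1, which encodes the survival protein BCL-XL, rose from 15.3, 14.8, 13.6 and 13.4 CPM to 25.5, 25.2, 29.5 and 26.7 CPM (log2 fold change 0.90, SE 0.073, adjusted p = 4.5e-06), while Bmf, which encodes a protein that binds and blocks BCL-2 family survival proteins, fell from 4.98, 6.64, 6.14 and 7.92 CPM to 3.61, 1.87, 2.81 and 2.91 CPM (log2 fold change -1.20, SE 0.19, adjusted p = 0.00101). Both kept their call in the summed fit, with adjusted p = 0.00828 and 0.0171. Otud1, a deubiquitinase, measured 41.7, 25.8, 26.1 and 32.4 CPM in mock and 92.8, 129, 124 and 111 CPM in C-del, a 3.62-fold rise (adjusted p = 0.00115; 4.2e-04 in the summed fit). Mock library 1 was the highest of its group and still far below the lowest C-del library. Other genes that rose with small p-values included Rcan2, an inhibitor of calcineurin (log2 fold change 0.55), Tmem37, a calcium channel gamma-like subunit (0.96), Ip6k3, an inositol hexakisphosphate kinase (0.64), Ppp1r10, a nuclear regulator of protein phosphatase 1 (0.95), Klf6, a zinc finger transcription factor (0.64) and Tlr5, the flagellin receptor (1.98), all still called in the summed fit.

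Some of the largest rises were less even between libraries. The metallothioneins Mt1 and Mt2 encode metal-binding proteins. Mt2 measured 3.94, 2.82, 10.9 and 9.58 CPM in mock and 30.9, 78.8, 45.5 and 35.6 CPM in C-del, and Mt1 8.28, 8.25, 17.2 and 18.6 CPM in mock and 44.8, 74.0, 63.9 and 58.6 CPM in C-del. The mock libraries fell into a lower pair (1 and 2) and a higher pair (3 and 4) for both genes, and all C-del libraries were above them. The log2 fold changes were 2.82 (SE 0.52, adjusted p = 0.0209) and 2.21 (SE 0.32, adjusted p = 0.00880), and the summed fit called neither (adjusted p = 0.272 and 0.219). Cyp26b1, a retinoic acid hydroxylase, behaved likewise, at 15.8, 13.5, 11.9 and 9.86 CPM in mock and 54.0, 47.6, 31.9 and 29.9 CPM in C-del (adjusted p = 0.00901; 0.205 in the summed fit).

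**Figure D2:**
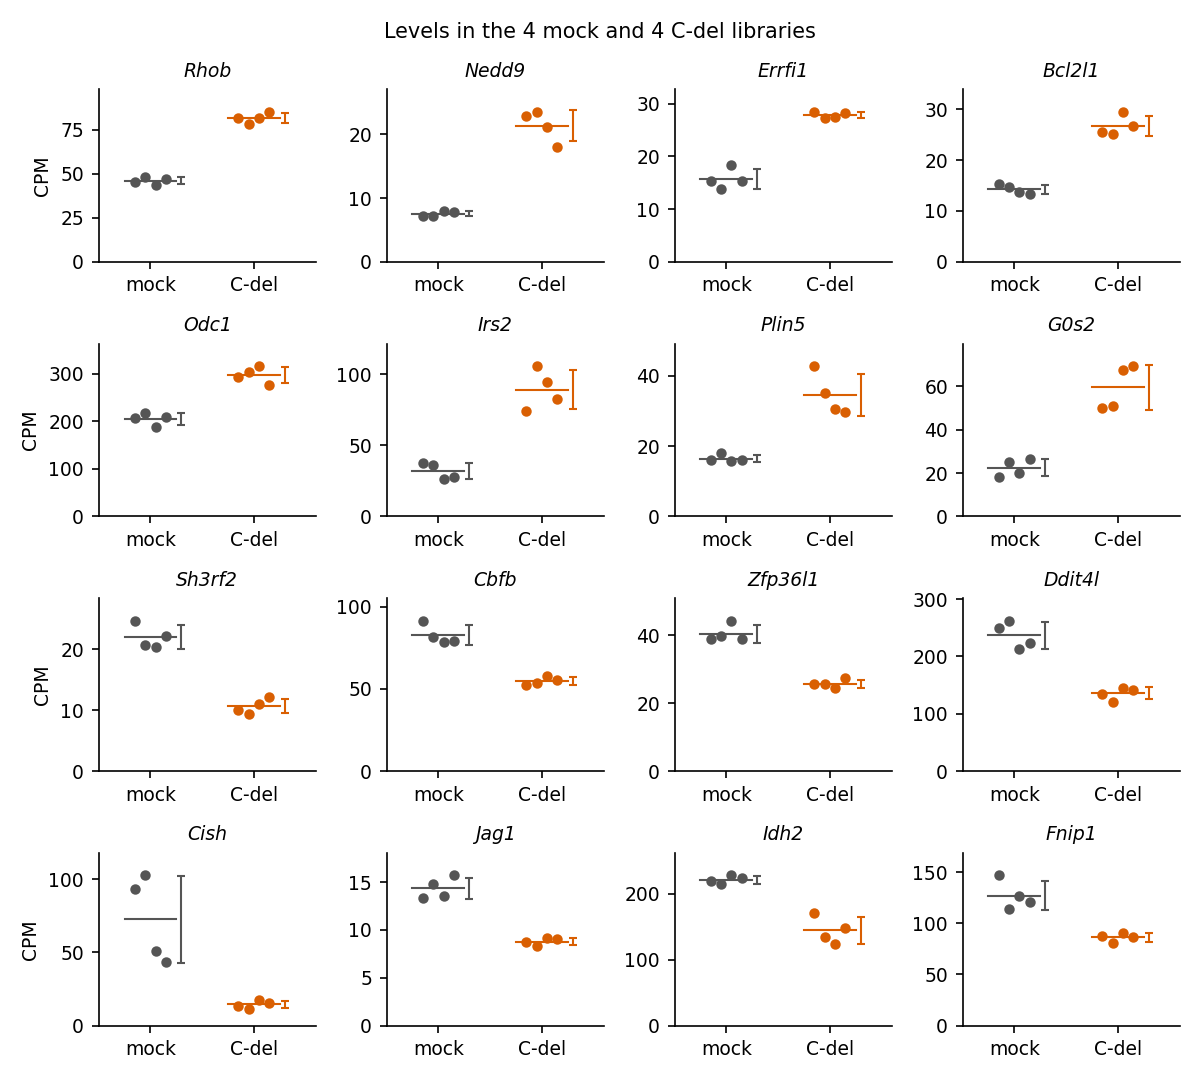
Level in CPM (vertical axis, from 0) of 16 genes in the 4 mock (grey) and 4 C-del (orange) libraries; each dot is a library, in column order from left to right, the line is the mean and the bar beside it the mean ± SD (n = 4). In all 16 genes the groups do not overlap, as in 787 of 843 genes called higher and 715 of 781 called lower. For Cish, mock libraries 1 and 2 lie well above mock libraries 3 and 4.

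On the lower side, Sh3rf2, a ubiquitin ligase with SH3 domains, measured 24.6, 20.6, 20.4 and 22.1 CPM in mock and 10.1, 9.41, 10.9 and 12.2 CPM in C-del. It fell by 1.04 on the log2 scale (SE 0.091, adjusted p = 9.5e-06; 0.00834 in the summed fit), without overlap. Several transcription regulators fell with tight libraries. Vgll2, a muscle cofactor of TEAD factors, went from 122, 119, 127 and 121 CPM to 82.6, 82.2, 89.3 and 88.0 CPM (log2 fold change -0.52, adjusted p = 1.1e-05), and Cbfb, the partner subunit of RUNX factors, from 91.5, 81.9, 78.7 and 79.3 CPM to 52.4, 53.4, 57.7 and 55.2 CPM (log2 fold change -0.60, adjusted p = 1.8e-05). Eya1, a coactivator of homeobox factors in fast fibres, had a log2 fold change of -0.66 (SE 0.080, adjusted p = 1.4e-04), and Ikzf4, a zinc finger factor with under 5 CPM in every library, -1.57 (SE 0.25, adjusted p = 0.00114). Sav1, the scaffold of the Hippo kinases, fell from 81.4, 77.0, 73.0 and 67.0 CPM to 49.3, 47.2, 50.5 and 51.6 CPM (log2 fold change -0.59, adjusted p = 3.5e-05). All 5 remained called in the summed fit, at adjusted p of 0.0134, 0.0134, 0.0128, 0.0375 and 0.0190.

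Genes of some RNA-binding proteins were among the lower genes. Rbm3, a cold-inducible RNA-binding protein, measured 71.2, 60.1, 56.1 and 61.9 CPM in mock and 34.4, 39.1, 36.1 and 39.9 CPM in C-del (log2 fold change -0.74, SE 0.074, adjusted p = 2.8e-05; 0.00842 in the summed fit). Zfp36l1, which binds AU-rich elements of messenger RNAs, measured 38.9, 39.8, 44.3 and 38.9 CPM in mock and 25.5, 25.6, 24.5 and 27.4 CPM in C-del (log2 fold change -0.65, SE 0.062, adjusted p = 1.6e-05). Of 52 splicing factors tested, 1 rose and 8 fell, 17.3% against 11.2% of all genes. Shares called rose with level, to 11.8% higher and 8.01% lower in the bin of highest level, and this comparison was not matched for level. Those that fell included Cirbp, also cold-inducible (-0.37), Celf2 (-0.30) and Mbnl1 (-0.28). The list's median log2 fold change was -0.02, and 1 member, Rbm3, was called in the summed fit.

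Cytokine signalling gave the largest fall. Cish, a STAT-induced inhibitor of cytokine receptors, measured 93.1, 103, 51.2 and 43.7 CPM in mock and 13.5, 11.3, 17.6 and 15.5 CPM in C-del. All C-del libraries were below all mock libraries, and the 4 mock libraries split into a higher pair (1 and 2) and a lower pair (3 and 4). The log2 fold change was -2.33 (SE 0.35, adjusted p = 0.0103), which the summed fit did not call (adjusted p = 0.262), nor the fit without C-del libraries 1 and 2 (adjusted p = 0.107). Its relative Socs2, which restrains growth hormone signalling, fell from 53.4, 55.8, 48.9 and 42.7 CPM to 16.8, 16.1, 21.1 and 20.8 CPM, with adjusted p = 1.0e-05, and stayed called in the summed fit (0.0152). Egr1, an immediate early gene that is also a tendon factor, measured 81.5, 80.1, 61.4 and 72.4 CPM in mock and 20.2, 27.8, 11.9 and 10.8 CPM in C-del (log2 fold change -2.06, SE 0.31, adjusted p = 0.0103; 0.264 in the summed fit). The 15 tendon markers, Egr1 among them, had a median log2 fold change of -0.80 with 2 called lower (13.3%, against 11.2% of all genes), 7 called lower by DESeq2 and 3 in the summed fit, and their summed level was 510 to 721 CPM in mock and 353 to 473 CPM in C-del; their part in the fall of Egr1 was not tested.

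Promoter sequence was set beside these changes, because heat shock genes and STAT targets each have a known binding motif. The windows of RefSeq (GRCm38.p6) run from 250 bases before to 50 bases from the gene's start and were matched by symbol for 10824 of the genes tested. Those of 3 genes are printed here from 150 bases before the start, 5′ to 3′ along the gene, with the motif in capitals: Hspa1a (chr17:34972127-34972306, minus strand) and Dnaja1 (chr4:40722318-40722497, plus strand) with the heat shock element GAANNTTC, and Cish (chr9:107296509-107296688, plus strand) with the STAT site TTCNNNGAA.
Hspa1a: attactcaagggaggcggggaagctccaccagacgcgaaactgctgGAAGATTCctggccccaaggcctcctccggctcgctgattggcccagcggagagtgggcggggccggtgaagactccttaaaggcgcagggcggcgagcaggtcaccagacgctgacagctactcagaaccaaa
Dnaja1: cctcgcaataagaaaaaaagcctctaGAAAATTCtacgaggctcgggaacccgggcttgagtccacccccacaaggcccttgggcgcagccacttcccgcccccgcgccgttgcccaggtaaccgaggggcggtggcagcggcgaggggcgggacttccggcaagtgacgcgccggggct
Cish: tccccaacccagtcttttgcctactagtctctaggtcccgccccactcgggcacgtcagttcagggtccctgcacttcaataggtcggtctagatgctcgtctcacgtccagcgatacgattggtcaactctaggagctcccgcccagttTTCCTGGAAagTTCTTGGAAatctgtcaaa
Both motifs read the same on either strand. The match begins 104 bases before the start in Hspa1a and 124 bases before it in Dnaja1, and the 2 matches of Cish begin at the start and 11 bases into the transcript. The window of Cish, a gene that fell, also holds 1 match to the heat shock element, in the letters between its STAT sites and overlapping both. Hspa1a, a stress-induced HSP70, measured 5.43, 3.22, 2.59 and 3.47 CPM in mock and 16.2, 20.9, 15.9 and 12.5 CPM in C-del (adjusted p = 3.5e-04), and the co-chaperone Dnaja1 47.8, 41.3, 50.2 and 51.6 CPM in mock and 77.5, 82.4, 80.9 and 83.5 CPM in C-del (adjusted p = 7.1e-06). Hspa1a has a near-identical copy, Hspa1b, so its counts are uncertain. Across all windows the heat shock element was in 5.64%. It was in 6.39% of 642 genes called higher and 4.75% of 568 called lower. Of the 45 that rose by 2-fold or more, 6 held it (13.3%). Hspa1a and its copy Hspa1b are both among the 6, while Dnajb1, which also rose, has 0 matches. The STAT site was in 6.79% of all windows, 8.1% of those called higher, 6.87% of those called lower and 6.67% of the 45. The TATA box, TATAAA read on both strands, was in 10.7% of windows of genes called higher, 11.6% of those called lower and 7.59% of all. Among the 45 it was in 15.6%, and the letters CCAAT were in 51.1%, against 38.3% of all windows. A match describes these letters only and shows no binding.

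Z-disc proteins anchor the thin filaments of the sarcomere. Of 35 Z-disc and stretch-sensing genes tested, 11 rose and 3 fell (40.0% called, against 11.2% of all genes). Their median log2 fold change was 0.16. Pdlim5, a scaffold of the Z-disc, measured 455, 409.6, 428 and 435 CPM in mock and 576, 572, 581 and 564 CPM in C-del (log2 fold change 0.41, SE 0.043, adjusted p = 3.7e-05). Hspb8 and Bag3, which together clear damaged Z-disc proteins, had log2 fold changes of 0.41 (SE 0.045, adjusted p = 6.3e-05) and 0.50 (SE 0.067, adjusted p = 4.1e-04). These 3 were the members still called in the summed fit, at adjusted p of 0.0220, 0.0294 and 0.0375.

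The largest rises of this list, named after their values were seen, belonged to Hspb7, a small heat shock protein that binds filamin C, and Fhl1, a LIM protein of the sarcomere. Hspb7 measured 541, 503, 529 and 512 CPM in mock and 1423, 1889, 905 and 894 CPM in C-del, and Fhl1 1137, 1029.8, 1051 and 1089 CPM in mock and 2835, 3324, 1643 and 1695 CPM in C-del. C-del libraries 1 and 2 were far above C-del libraries 3 and 4 for both genes, and all were above mock. Their log2 fold changes were 1.29 (SE 0.27, adjusted p = 0.0299) and 1.14 (SE 0.26, adjusted p = 0.0399). Neither was called in the summed fit (adjusted p = 0.301 and 0.324) or without mock libraries 3 and 4 (0.205 and 0.236). Without C-del libraries 1 and 2 both were called, at log2 fold changes of 0.788 and 0.633 (adjusted p = 1.2e-07 and 2.1e-06). In these same C-del libraries 1 and 2 the macrophage marker sum was also highest; its part in these rises was not tested. Flnc itself, filamin C, had a log2 fold change of 0.57 (SE 0.14, adjusted p = 0.0392; 0.104 in the summed fit).

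Thick and thin filament genes were called less often in this fit, with 6 of 37 higher, 2 lower and a median of -0.04. Called were 21.6% of them and 17.8% of the costamere and dystrophin complex genes below, against 11.2% of all genes. The filament list depended on the C-del pair. Without C-del libraries 3 and 4 it had 8 higher and 11 lower at a median of -0.13. Without C-del libraries 1 and 2 it had 6 higher and 1 lower at a median of 0.0781. Mybpc1, slow myosin-binding protein C, rose by 0.31 on the log2 scale (SE 0.044, adjusted p = 4.2e-04), Myh1, the IIX myosin heavy chain, by 0.39 (SE 0.084, adjusted p = 0.0114) and Acta1, skeletal alpha-actin, by 0.20 (SE 0.050, adjusted p = 0.0185). Myh1 stood at 12220.3, 12503, 12152 and 12115 CPM in mock and 17972, 18075, 14244 and 13759 CPM in C-del, again highest in C-del libraries 1 and 2. The summed fit called 0 of these 37; its unadjusted p was under 0.05 for 5 higher and 2 lower genes. Costamere and dystrophin complex genes, which tie the Z-disc to the membrane, were 6 higher and 2 lower of 45, among them Vcl (log2 fold change 0.32) and Cav3 (0.26), with 0 called in the summed fit, where an unadjusted p under 0.05 was reached by 10 higher and 2 lower genes.

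Mitochondrial carriers were called in 1 direction, at 23.8% of those tested against 11.2% of all genes. Of 42 tested, 10 rose and 0 fell (edgeR; DESeq2 also 10 and 0, and 14 and 2 at an unadjusted p under 0.05), with a median of 0.0951; 3 of them were called in the summed fit, 7 without C-del libraries 1 and 2, and 5 without mock libraries 3 and 4. Slc25a25, the calcium-regulated ATP-Mg/phosphate carrier, led with a 4.24-fold rise (adjusted p = 5.8e-09; 4.4e-04 in the summed fit). Ucp3, an uncoupling protein of muscle mitochondria, measured 116, 124, 125 and 125 CPM in mock and 172, 149, 185 and 195 CPM in C-del (log2 fold change 0.51, SE 0.070, adjusted p = 4.4e-04), and Slc25a22, a glutamate carrier, 11.7, 13.5, 10.2 and 12.2 CPM in mock and 21.6, 20.5, 18.4 and 16.7 CPM in C-del (log2 fold change 0.69, SE 0.099, adjusted p = 4.9e-04). The groups did not overlap in either, and both kept their call in the summed fit (0.0416 and 0.0379).

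Inside the mitochondrion the changes went both ways. Called were 13.5% of proteases, chaperones and dynamics genes, 18.8% of TCA cycle genes and 23.8% of branched-chain amino acid genes, against 11.2% of all. Of 37 proteases, chaperones and dynamics genes, 4 rose and 1 fell, with small log2 fold changes such as 0.23 for the protease subunit Afg3l2 and -0.19 for Clpx, the unfoldase of the ClpP protease (adjusted p = 0.114 and 0.207 in the summed fit). The summed fit and the fit without mock libraries 3 and 4 each called 0 of these 37, where 6 and 5 had an unadjusted p under 0.05. Among 32 genes of the TCA cycle and pyruvate entry, 3 rose and 3 fell, and the summed fit called 1, Idh2. This gene, the NADP-dependent isocitrate dehydrogenase, measured 219, 214, 228 and 224 CPM in mock and 171, 135, 124 and 148 CPM in C-del. It fell by 0.61 on the log2 scale (SE 0.081, adjusted p = 6.6e-04; 0.0105 in the summed fit), with all C-del libraries below mock. Pcx, pyruvate carboxylase, which refills the cycle, rose by 0.34 (SE 0.057, adjusted p = 0.00161; 0.0542 in the summed fit). Breakdown of branched-chain amino acids had 0 higher and 5 lower of 21 in edgeR (0 and 6 in DESeq2, 1 and 12 at an unadjusted p under 0.05), at a median of -0.126: Ivd (-0.33), Aldh6a1 (-0.29), Acadsb (-0.32) and Ppm1k (-0.40), the phosphatase that turns the branched-chain dehydrogenase on, were among them. The same list had 5 lower without C-del libraries 1 and 2 and 3 lower without mock libraries 3 and 4, but 0 in the summed fit, where 9 had an unadjusted p under 0.05.

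Of 28 fatty acid and triglyceride genes, 7 rose and 1 fell (28.6% called, against 11.2% of all genes). The median over the list was 0.0469 on the log2 scale. The summed fit called 2 higher, and without mock libraries 3 and 4 it was 2 higher and 1 lower. Plin5, which coats droplets and links them to mitochondria, measured 16.1, 17.98, 15.6 and 15.97 CPM in mock and 42.7, 35.0, 30.7 and 29.6 CPM in C-del (log2 fold change 1.07, SE 0.11, adjusted p = 9.4e-05; 0.0188 in the summed fit). G0s2, the inhibitor of adipose triglyceride lipase, measured 18.2, 25.3, 20.2 and 26.6 CPM in mock and 50.1, 50.8, 67.7 and 69.3 CPM in C-del (log2 fold change 1.40, SE 0.16, adjusted p = 0.00161; 0.0255 in the summed fit). Neither gene overlapped between groups. Pnpla2, that lipase itself, rose by 0.31 (adjusted p = 0.00238) and Lpin1, a phosphatidate phosphatase, by 0.25 (adjusted p = 0.00304), but not in the summed fit (0.0934 and 0.124). Adipocyte markers summed to 2810 to 3102 CPM in mock and 2017 to 2469 CPM in C-del, with 0 of 15 called by edgeR, 2 lower by DESeq2, 4 with an unadjusted p under 0.05 (1 higher, 3 lower), and Ucp1 at 0 throughout. Fewer cells of a type and less RNA per cell cannot be told apart in bulk tissue, here or below.

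Of 23 glycolysis genes, 5 rose and 1 fell (1 and 1 without mock libraries 3 and 4): Gapdh rose by 0.25 on the log2 scale (SE 0.046, adjusted p = 0.00297), Pfkfb4, which makes an activator of phosphofructokinase, by 0.54 (SE 0.10) and the glucose transporter Slc2a4 by 0.17 (SE 0.042), while Fbp2, muscle fructose bisphosphatase, fell by 0.37 (SE 0.083, adjusted p = 0.0105). Of 21 glycogen genes, 3 rose and 2 fell, at a median of -0.00426. Called were 23.8% of the glycogen and 26.1% of the glycolysis genes, against 11.2% of all genes. Ppp1r3c, which brings protein phosphatase 1 to glycogen, measured 349.8, 310.4, 339.5 and 332 CPM in mock and 592, 550.3, 939 and 931 CPM in C-del. Here C-del libraries 3 and 4 were the higher pair, and the adjusted p was 0.0162 but 0.234 in the summed fit. Gbe1, the glycogen branching enzyme, rose by 0.45 (adjusted p = 0.0129) and Phkg1, the catalytic subunit of phosphorylase kinase, fell by 0.25 (adjusted p = 0.0174). The summed fit called 0 of the 23 glycolysis and 0 of the 21 glycogen genes, where 5 and 6 had an unadjusted p under 0.05. Slc16a3, the lactate exporter MCT4, measured 286, 314, 273 and 291 CPM in mock and 390.4, 364, 411 and 424 CPM in C-del (log2 fold change 0.45, adjusted p = 1.5e-04; 0.0334 in the summed fit).

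Insulin signalling genes were 6 higher and 2 lower of 32 (25% called, against 11.2% of all genes), and 2 and 1 in the summed fit; at an unadjusted p under 0.05, 7 were higher and 8 were lower. Irs2, an insulin receptor substrate, measured 37.6, 36.0, 26.6 and 27.9 CPM in mock and 74.1, 106, 94.3 and 82.5 CPM in C-del, a 2.78-fold rise (adjusted p = 7.7e-04; 0.0152 in the summed fit). Tbc1d1, a Rab regulator of glucose transporter traffic, rose by 0.43 (SE 0.053, adjusted p = 1.4e-04; 0.0230), and Grb10, an adaptor that restrains the insulin receptor, fell by 0.52 (SE 0.094, adjusted p = 0.00327; 0.0263). Energy-sensing genes went both ways, 5 higher and 4 lower of 32 (28.1% called), and 1 and 1 in the summed fit. Ppargc1b, a coactivator of mitochondrial genes, rose from 17.9, 20.5, 22.0 and 21.0 CPM to 31.7, 32.8, 30.4 and 27.4 CPM (adjusted p = 2.2e-04), and Fnip1, a folliculin partner that binds AMPK, fell from 147, 114, 126 and 121 CPM to 87.9, 80.7, 90.6 and 86.3 CPM (adjusted p = 2.1e-04). These were the 2 called there (0.0290 and 0.0104).

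Regulators of mTORC1, the kinase complex that couples nutrients to growth, split. Ddit4 rose from 11.2, 12.5, 12.9 and 13.7 CPM to 58.8, 47.4, 63.6 and 77.0 CPM, while its paralogue Ddit4l fell from 249, 262, 212 and 223 CPM to 135, 121, 145 and 141 CPM (log2 fold changes 2.30 and -0.80, adjusted p = 3.0e-05 and 2.6e-05). Both encode inhibitors of signalling to the complex. Deptor, an inhibitor within the complex, fell by 0.47 (SE 0.051, adjusted p = 4.4e-05), and Sesn1, a stress-induced sestrin, by 0.48 (SE 0.077, adjusted p = 0.00109). All 4 were called in the summed fit. The list as tested had 2 higher and 4 lower of 30, a larger share than the 11.2% of all genes. At an unadjusted p under 0.05 (edgeR), 4 were higher and 5 lower, and the median log2 fold change was -0.0183.

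Odc1, ornithine decarboxylase, the first enzyme of polyamine synthesis, measured 208, 217, 188 and 209 CPM in mock and 294, 304, 316 and 275 CPM in C-del (log2 fold change 0.53, SE 0.055, adjusted p = 2.9e-05; 0.0115 in the summed fit). Smox, spermine oxidase, rose by 0.65 (SE 0.10, adjusted p = 0.00392; 0.0947 in the summed fit). Mat2a, which makes S-adenosylmethionine, went from 73.8, 66.7, 72.4 and 75.3 CPM to 108, 102, 118 and 113 CPM (adjusted p = 1.3e-05), though the table lists a second entry under the same symbol, so reads may be split between them. Mthfd2, of mitochondrial folate metabolism, rose by 0.78 (SE 0.12, adjusted p = 0.00114; 0.0303). One-carbon, serine and polyamine genes together were 4 higher and 1 lower of 28 (17.9%), and 3 higher in the summed fit. Amino acid transporters were 7 higher and 3 lower of 30 (33.3%, against 11.2% of all genes). The summed fit called 1 of them, Slc25a22, which the carrier list also holds.

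All 36 proteasome subunits tested had a positive log2 fold change, with a median of 0.08 and 7 called higher (19.4%, against 11.2% of all genes). The changes were small: Psmd3 measured 121, 121, 116 and 118 CPM in mock and 136, 139, 129 and 134 CPM in C-del (log2 fold change 0.17, SE 0.043, adjusted p = 0.0184), and Psmd2 296, 292, 282 and 283 CPM in mock and 315, 325, 317 and 320.4 CPM in C-del (log2 fold change 0.15, SE 0.039, adjusted p = 0.0266). With upper quartile scaling 34 of 36 were positive, without mock libraries 3 and 4 it was 32 of 36 with 0 called, and the summed fit called 0; 6 and 8 had an unadjusted p under 0.05 there. Muscle ubiquitin ligases and their partners were 9 higher and 4 lower of 43 (30.2%, against 11.2% of all genes). The summed fit called 3 higher and 2 lower. With upper quartile scaling it was 7 and 6, and without C-del libraries 3 and 4 it was 7 and 7. Lysosome genes were 2 higher and 2 lower of 40, a share under that of all genes. Usp2, a deubiquitinase, measured 253, 248, 242 and 247 CPM in mock and 316, 317, 329 and 330.3 CPM in C-del (adjusted p = 3.3e-05; 0.0274 in the summed fit). Of 32 genes with a Klhl symbol, which encode kelch proteins, 1 rose and 7 fell (25%, against 11.2% of all genes). Genes with Dusp and Pde symbols had the same share, and no family counted by symbol had a higher one. The median log2 fold change of the Klhl genes was -0.000377, so the family as a whole did not fall. Klhl30 rose from 117, 127, 117 and 134 CPM to 169, 208, 193 and 173 CPM (adjusted p = 1.2e-04), and Klhl31 and Klhl33 fell, with log2 fold changes of -0.34 and -0.51 (adjusted p = 2.9e-04 and 9.3e-04). Of 34 genes of endoplasmic reticulum folding, 5 rose (14.7%) and 0 fell in edgeR, and DESeq2 gave the same counts. The unadjusted p of edgeR was under 0.05 for 11 higher and 3 lower. The called genes were led by Dnajb2 (0.29) with Hyou1 (0.25). The summed fit called 0, where 6 higher genes and 1 lower gene had an unadjusted p under 0.05.

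Cyclic AMP genes were among the lists with calls in both directions, 9 higher and 5 lower of 39 (35.9%, against 11.2% of all genes). The summed fit called 3 and 3. Pde8a, a cyclic AMP phosphodiesterase, measured 26.6, 25.1, 27.6 and 25.8 CPM in mock and 43.3, 43.5, 39.7 and 37.4 CPM in C-del (log2 fold change 0.64, SE 0.063, adjusted p = 2.3e-05; 0.0143 in the summed fit). The arrestin-like Arrdc4 rose from 6.85, 6.31, 5.12 and 5.56 CPM to 12.6, 10.9, 13.1 and 10.1 CPM (adjusted p = 1.5e-04; 0.0201), and the anchoring protein Akap6 fell from 101, 93.1, 102 and 94.2 CPM to 70.5, 73.8, 73.3 and 69.0 CPM (adjusted p = 5.6e-05; 0.0158). Sik1, a salt-inducible kinase induced by cyclic AMP, named after its values were seen, rose by 1.18 (adjusted p = 0.00393; 0.0522 in the summed fit).

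Calcium genes leaned lower, with 19.4% called in the release and reuptake list against 11.2% of all genes. Of 36 genes of calcium release and reuptake 1 rose and 6 fell, and without C-del libraries 3 and 4 it was 2 and 18, without C-del libraries 1 and 2 it was 2 and 2, and in the summed fit 0 and 1. Itpr1, an IP3 receptor, fell by 0.40 (SE 0.071, adjusted p = 0.00249; 0.0542 in the summed fit) and Stac3, an adaptor of excitation-contraction coupling, by 0.24 (SE 0.062, adjusted p = 0.0201; 0.233). The member called lower in the summed fit was Slc8a3, with a log2 fold change of -0.61 there (adjusted p = 0.0143). Outside this list, Plcd4, a phospholipase C, fell from 127, 115, 102 and 99.9 CPM to 64.7, 57.8, 69.7 and 69.7 CPM (adjusted p = 1.2e-04, and 0.0303 in the summed fit). The calcineurin regulators went apart, Rcan2 from 88.3, 90.1, 93.6 and 91.7 CPM up to 136, 135, 132 and 129.7 CPM and Rcan1 from 344, 292, 316 and 328 CPM down to 234, 219, 260.3 and 263 CPM (adjusted p = 2.7e-06 and 0.00155); the second was not called in the summed fit (0.0659).

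TGF-beta, activin and BMP genes were 5 higher and 7 lower of 47 (25.5%, against 11.2% of all genes). Genes of a pair of receptors fell. Tgfbr2, the type II receptor of TGF-beta, measured 80.6, 80.6, 80.8 and 77.2 CPM in mock and 59.4, 59.1, 59.4 and 57.0 CPM in C-del (log2 fold change -0.44, SE 0.045, adjusted p = 2.9e-05), and Acvr1, a type I receptor, 26.2, 32.5, 28.2 and 23.3 CPM in mock and 17.3, 18.7, 17.95 and 15.7 CPM in C-del (log2 fold change -0.66, SE 0.093, adjusted p = 4.8e-04). Id1, a target of BMP signalling, rose by 0.60 (SE 0.10, adjusted p = 0.00184). These 3 were called in the summed fit (0.0191, 0.0182 and 0.0421). The myostatin gene Mstn fell by 0.31 (SE 0.088, adjusted p = 0.0374), and Fst, whose product binds myostatin and activin, by 0.97 (SE 0.18, adjusted p = 0.00278); Fst was named after its values were seen, and the summed fit called neither (0.0946 and 0.0618).

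Notch and Wnt genes had calls on the lower side only in this fit, at 25.9% and 17.6% of those tested, against 11.2% of all genes. Of 27 Notch genes, 0 rose and 7 fell, and of 34 Wnt genes 0 rose and 6 fell, with medians of -0.0865 and -0.155. DESeq2 called 0 higher and 7 lower in each, edgeR's unadjusted p was under 0.05 for 1 higher and 8 lower Notch genes and 2 higher and 10 lower Wnt genes, and the summed fit called 1 lower in each. The Notch ligand Jag1 measured 13.3, 14.8, 13.6 and 15.7 CPM in mock and 8.70, 8.33, 9.11 and 9.01 CPM in C-del (log2 fold change -0.71, SE 0.085, adjusted p = 1.3e-04; 0.0218 in the summed fit), and Dll4, the endothelial ligand, 14.6, 14.9, 15.6 and 15.6 CPM in mock and 9.93, 8.79, 11.5 and 11.5 CPM in C-del (adjusted p = 0.00200; 0.0910). Neither overlapped between groups. Heyl, a target, and Notch3, the receptor of mural cells, fell by 0.44 and 0.25 (adjusted p = 0.00261 and 0.00810; 0.0814 and 0.137 in the summed fit). The Wnt receptor Fzd4 measured 66.6, 66.3, 60.3 and 55.2 CPM in mock and 44.6, 42.3, 50.3 and 41.7 CPM in C-del (adjusted p = 9.2e-04; 0.0416), and the ligand Wnt4 23.2, 27.5, 26.0 and 26.1 CPM in mock and 13.5, 10.5, 19.4 and 16.2 CPM in C-del (adjusted p = 0.0135; 0.144).

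Some genes of the vessel wall also fell and others rose. Notch3 is in both the Notch list and the list of pericyte and smooth muscle markers. Pericyte and smooth muscle markers were 1 higher and 10 lower of 20 (55.0%, against 11.2% of all genes), at a median of -0.255. Kcnj8, a potassium channel of pericytes, measured 34.0, 37.1, 32.2 and 34.1 CPM in mock and 25.8, 29.2, 25.1 and 23.4 CPM in C-del, Pdgfrb 65.4, 70.4, 75.1 and 68.4 CPM in mock and 58.5, 55.3, 59.0 and 58.5 CPM in C-del, and Acta2, smooth muscle actin, 94.0, 123, 114 and 111 CPM in mock and 85.8, 87.0, 85.4 and 93.8 CPM in C-del. None of the 3 overlapped between groups, at adjusted p of 0.00238, 0.00441 and 0.00816. Of the 781 genes called lower, 715 did not overlap. The count of lower markers was 4 without mock libraries 3 and 4, 6 without mock libraries 1 and 2, 6 without C-del libraries 1 and 2, and 0 in the summed fit, where 10 lower markers had an unadjusted p under 0.05. The summed level of the 20 markers was 4301 to 4624 CPM in mock and 4464 to 4813 CPM in C-del; Des, which muscle fibres also express, is in that sum and is the marker that rose. Endothelial markers went both ways, 3 higher and 6 lower of 38 (23.7%). They summed to 1479 to 1567 CPM in mock and 1504 to 1614 CPM in C-del. At an unadjusted p under 0.05, 11 endothelial markers were higher and 7 lower. The calls were 5 higher and 2 lower without mock libraries 3 and 4, and 2 and 1 in the summed fit. Ednrb, one of those called higher, had a log2 fold change of 1.066 in the summed fit (adjusted p = 0.00302). Sox7, an endothelial transcription factor, fell from 12.9, 12.9, 11.9 and 12.3 CPM to 6.38, 6.92, 8.04 and 7.85 CPM, Aplnr, the apelin receptor, from 22.4, 25.02, 21.8 and 22.7 CPM to 14.2, 13.0, 8.11 and 10.2 CPM, and Rgcc rose from 32.9, 29.1, 34.7 and 32.4 CPM to 57.5, 74.5, 61.9 and 49.5 CPM (adjusted p = 1.4e-04, 0.00114 and 7.7e-04; 0.0324, 0.0766 and 0.0104 in the summed fit). Vegfa, the angiogenic factor, rose by 0.29 (SE 0.047, adjusted p = 0.00114; 0.0793).

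Oxidative defence genes were 5 higher and 2 lower of 39 (17.9%, against 11.2% of all genes), and 1 and 2 in the summed fit. Srxn1, sulfiredoxin, rose from 68.8, 51.9, 52.9 and 59.3 CPM to 94.3, 87.4, 98.0 and 92.9 CPM, and the glutathione transferases Gstm2 and Gstm1 fell, Gstm2 from 51.7, 46.3, 49.4 and 49.0 CPM to 29.98, 26.1, 29.1 and 35.8 CPM (adjusted p = 1.5e-04, 1.1e-04 and 5.6e-04). These 3 were the ones called there (0.00828, 0.0143 and 0.0493). Members of the Gstm family are close in sequence, so reads may be shared among them. Adamts1, a protease of the matrix, rose from 57.8, 46.5, 47.1 and 47.6 CPM to 69.0, 79.8, 77.6 and 71.5 CPM (adjusted p = 1.9e-04; 0.0128), and Ctsd, the lysosomal protease cathepsin D, from 668, 691, 670.3 and 669 CPM to 929, 865, 818 and 843 CPM (adjusted p = 2.2e-04).

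Several housekeeping groups stayed at or under the share of all genes. Secretory pathway genes had 1 called of 36, nuclear pore and transport genes 1 of 38, cholesterol synthesis and uptake 1 of 24, tRNA synthetases 1 of 22, nucleolar ribosome assembly 2 of 46, cell cycle genes 3 of 31 and translation factors 4 of 45. Their median log2 fold changes lay between -0.02 and 0.08. Macrophage markers had 0 of 21 called in edgeR, 4 higher in DESeq2 and 4 higher at an unadjusted p under 0.05, with a median of 0.69, 18 higher of 21 once C-del libraries 3 and 4 were left out, and 1 lower, with a median of -0.206, once C-del libraries 1 and 2 were left out. T, B and NK cell markers were at the edge of detection, with 3 of 25 tested and no count above 14 in the rest.

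**Figure D3:**
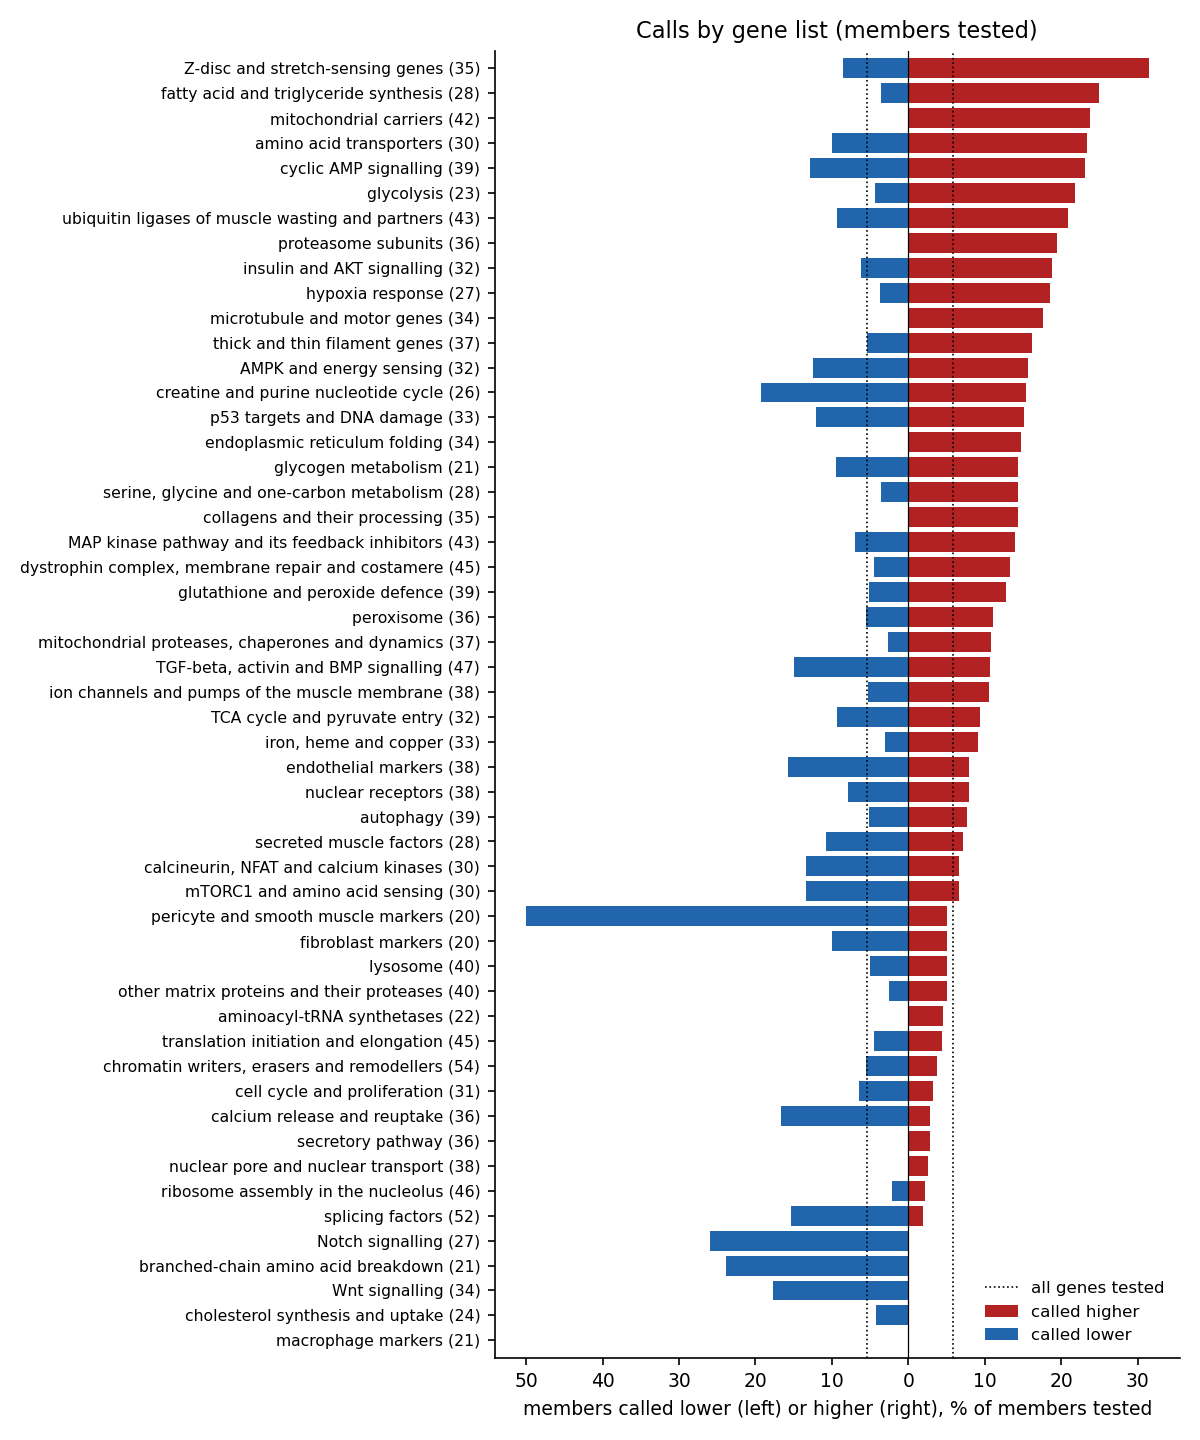
Share of members called lower (left, blue) or higher (right, red) in each list with at least 20 members tested, in percent of the members tested, whose number stands in parentheses; dotted lines mark the shares of all genes, 5.37% and 5.8%. Z-disc genes reach farthest to the right and pericyte and smooth muscle markers farthest to the left, while Notch, Wnt and branched-chain amino acid lists have bars on the lower side only.

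Calls in each direction were also counted by gene size. Genes were put in 5 bins of equal size by their span on the chromosome. In the bin of longest genes (67.2 to 2390 kb), 4.95% were called higher and 9.39% lower, with a median log2 fold change of -0.05. In the bin of shortest genes (0.054 to 7.14 kb) the shares were 6.37% and 4.47%. The longest genes had more lower than higher calls in each of the fits without 2 neighbouring columns, at 2.73% higher and 4.51% lower without mock libraries 3 and 4 and 4.11% and 6.04% without C-del libraries 1 and 2, and nearly even shares in the summed fit (1.2% and 1.27%) and in the fit of all 15 libraries (1.42% and 1.24%). Calls also depended on level. In the bin of lowest level (0.446 to 2.7 CPM) 1.48% were called higher and 2.23% lower with a median size of 0.945 log2 units, and in that of the highest level (48.2 CPM and more) 11.8% and 8.01% with a median size of 0.245. Genes of the X chromosome were 11 higher (2.6%) and 26 lower (6.15%) of 423, and long noncoding RNAs 35 higher (3.35%) and 53 lower (5.07%) of 1046, against 5.8% and 5.37% of all genes.

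**Figure D4:**
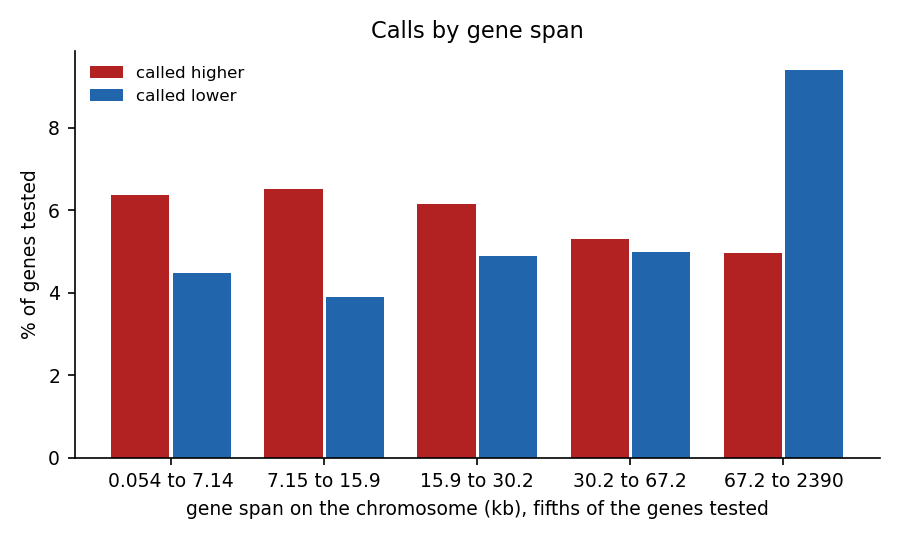
Percent of genes called higher (red) and lower (blue) in C-del, in 5 bins of gene span in kb, with about 2749 genes in each; bars start at 0. The longest genes have the tallest blue bar, 9.39%, and the shortest red bar, 4.95%.

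The same contrast was measured in females in another table, with 3 mock and 4 C-del libraries, of which mock libraries 2 and 3 stand apart in interferon-induced genes: Gbp10 was at 2.56, 151 and 170 CPM in mock libraries 1 to 3 and at 3.92 to 9.18 CPM in C-del. Sex and table cannot be told apart. Of the 843 genes higher in males, 824 were tested in females, where 550 (66.7%) had the same sign and 154 (18.7%) the same sign with an unadjusted p under 0.05, against 29 (3.52%) with the opposite sign. Of the 781 lower genes, 771 were tested, with 404 (52.4%) of the same sign, 71 (9.21%) with p under 0.05 and 32 (4.15%) opposite. Genes not called in males stood at 5.33% and 5.39% for the same and opposite sign. Same-sign genes with p under 0.05 were thus a larger share of both sets than of the genes not called. Among 47 that rose by 2-fold or more in males and were tested, 23 had the same sign at p under 0.05 (48.9%) and 4 the opposite sign (8.51%). Among 40 that fell by 2-fold or more, these were 6 (15%) and 3 (7.5%).

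By gene, Errfi1 had log2 fold changes of 0.83 in males and 1.23 in females, Adamts1 0.58 and 0.73, Otud1 1.86 and 1.37, Sik1 1.18 and 1.65, and Hspb7 1.29 and 1.33. Irs2 had 1.48 and 0.27, Plin5 1.07 and 0.58, and Jag1 -0.71 and 0.29. A fit of all 15 libraries called a difference between the 2 responses for 54 of 15272 genes (0.354%). The difference, female minus male, was -1.18 on the log2 scale for Tmem37 (adjusted p = 0.0215) and -0.84 for Smox (0.0225), and 0.9985 for Jag1 (0.0103) and 1.31 for Mcf2l (0.00195), a guanine nucleotide exchange factor. Egr1 fell in males and had a log2 fold change of 1.77 in females (unadjusted p = 0.00252), and Mt2 had 2.82 in males and -1.02 in females (unadjusted p = 0.150).

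**Figure D5:**
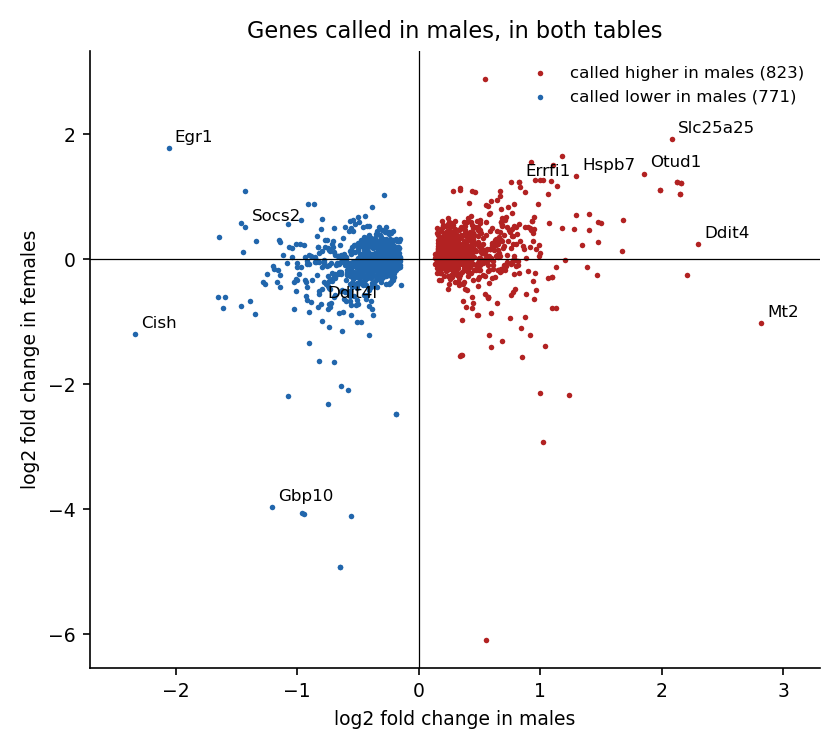
Log2 fold change in females (vertical axis) against that in males (horizontal axis) for the genes called in males and tested in females, Lsmem2 left out; red, called higher, and blue, called lower in males. Slc25a25, Otud1, Hspb7 and Errfi1 lie high on both axes, Egr1 and Socs2 have opposite signs, and the points under -2 in females include interferon-induced genes such as Gbp10.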

How the data were processed

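Tibialis anterior RNA was read by stranded mRNA sequencing. The authors' deposited tables hold expected counts per gene and library, made with featureCounts 2.0.0 on GRCm38.p6 per the submitters' processing notes; how multi-mapped reads were divided and whether strand was used is not given in the sources used here. Between 16.1% and 17.3% of a male library's 42396 values lay more than 0.001 from a whole number, so values were rounded. The male columns match the labels by group only, so which column is which library is not known.

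Genes passing filterByExpr (minimum of 10 counts) were fitted in edgeR 4.0.16 (R 4.3.3) with TMM scaling and the robust quasi-likelihood test, with Benjamini-Hochberg adjustment over all genes tested and calls under 0.05. CPM are counts divided by the library's total after TMM scaling. The female minus male difference was an interaction contrast over all 15 libraries. The 8 male libraries held 14297600 to 17744000 counts. No pair of libraries was within sampling noise of another (chi-square of 2.62 or more per gene), so none was dropped as a copy. Separate samples of the same animal could also exceed sampling noise, so this does not show that the libraries are independent. The code was tested on simulated data.

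The 62 gene lists (1991 of 1995 names matched) and the rule for the 300 genes that could be named were chosen with earlier results of these data known. The rule takes Lsmem2, the 30 higher and 30 lower called genes with the smallest adjusted p, the 15 with the largest fold in each direction, up to 4 members of each list by p, the 10 most abundant genes and, for the difference, 5 genes in each direction. Predicted genes and those under 1 CPM were left out of the first sets. Alternatives were DESeq2 1.42.0, limma-voom (limma 3.58.1), other scalings and filters, a test against a fold of 1.2, left-out libraries, summed neighbouring columns and a fit of all 15 libraries. Leaving out mock libraries 1 and 2, or C-del libraries 3 and 4, and the male replicate block were chosen after seeing the data. RefSeq symbols matched 40017 of 42396 entries, and 13744 of the 14543 tested. Figures were drawn with matplotlib 3.10.9 in Python 3.11.15.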

Additional observations from a re-analysis of the deposited data

Results flagged for a closer look

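In 12 of 372 groups of 4 male libraries examined, over 186 genes, 1 library lay apart from the others of its group by more than the 95% limit of Dixon's test for a group of 4; chance alone marks about 1 group in 20. Mock library 1 was at 4.78 CPM for Cntnap2, a neuronal adhesion protein, against 3.42 to 3.48 CPM in the other mock libraries, at 57.8 CPM for Adamts1 (46.5 to 47.6 CPM in the others) and at 116 CPM for Ucp3 (124 to 125 CPM). Mock library 2 held 691.5 CPM of Ctsd (667.7 to 670.3 CPM), and mock library 3 held 68.4 CPM of Fxyd6, a regulator of the sodium pump (64.9 to 65.3 CPM).

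C-del library 2 was apart for 4 genes. It held 1.247 CPM of Stum (1.87 to 1.94 CPM in the other C-del libraries), 2.04 CPM of Ostn, the muscle hormone osteocrin (2.95 to 3.02 CPM), 55.3 CPM of Pdgfrb (58.5 to 58.9 CPM) and 14.96 CPM of Nfatc2, a calcineurin-responsive transcription factor (12.2 to 12.6 CPM). C-del library 4 held 15.5 CPM of Cirbp (14.4 to 14.5 CPM). For Tgfbr2 library 4 was the low one in both groups, at 77.2 CPM in mock (80.5 to 80.8 CPM) and 57.0 CPM in C-del (59.1 to 59.4 CPM).

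The response differed between females and males, by the interaction contrast of edgeR, for 10 genes taken by the rule on the smallest p. Female minus male log2 fold changes above 0 were 1.02 for Gprc5c, an orphan receptor (adjusted p = 5.8e-04), 1.31 for Mcf2l (0.00195), 1.935 for Socs2 (0.00671), 0.9985 for Jag1 (0.0103) and 0.66 for Hs2st1, a heparan sulfate sulfotransferase (0.0103). Below 0 were -2.06 for Ddit4 (5.8e-04), -0.82 for Dnaja1 (0.0103), -0.95 for Hsp90aa1, a cytosolic HSP90 (0.0103), -1.18 for Tmem37 (0.0215) and -0.84 for Smox (0.0225). Each of these genes had a male log2 fold change on the other side of 0 from the difference. Sex and table cannot be told apart.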

How the results depend on the processing

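The count of 1624 called genes stayed within 1.5 times under DESeq2 (1506), limma-voom (1526), DESeq2 size factors (1620) and upper quartile scaling (1654). It also did with no filter (1603), a minimum of 50 counts (1643), the fit that is not robust (1537) and without C-del libraries 3 and 4 (2071). Similar counts were not the same genes. Of the 1624, DESeq2 called 1369 in the same direction, and the fit without C-del libraries 3 and 4 called 1204. Fewer were called without mock libraries 3 and 4 (767, of which 392 higher and 375 lower), without mock libraries 1 and 2 (1046, with 508 higher), with neighbouring columns summed (270, of which 164 and 106), in the fit of all 15 libraries (380, of which 214 and 166) and against a fold of 1.2 (283, of which 172 and 111); without C-del libraries 1 and 2, 482 were lower. Leaving out each library in turn gave 1100 to 1526 in all, 576 to 795 higher and 513 to 731 lower; the lowest 2 counts of lower genes, 514 and 513, came without mock library 4 and without C-del library 1.

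The 54 genes that differed between females and males became 672 with DESeq2, 10 to 1817 with 1 library left out (1817 without female mock library 1, 141 without female mock library 2 and 10 without female C-del library 2), and 39 without female mock libraries 2 and 3. With the female replicate numbers as a replicate block the count was 97. Deviations of female libraries with the same number correlated at -0.0928, -0.00274 and -0.0232, and of male libraries with the same column number at -0.0269, -0.0717, -0.138 and 0.00904, so the numbers paired neither. With male column numbers as a replicate block, an alternative chosen after seeing the data, 1162 genes were called.

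Of 186 genes followed in 23 alternatives, 60 kept their call in all and 0 changed direction; 102 lost it with neighbouring columns summed, 97 against a fold of 1.2, 88 in the fit of all libraries, 56 without mock libraries 3 and 4 and 26 without C-del libraries 1 and 2. The summed fit has only 2 values a group, fewer than the others. Depth limits low genes: in the bin of lowest level a called change had a median size of 0.945 log2 units.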

Other observations

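Further gene lists of the male libraries are given here, beside the 11.2% of all genes that were called. The share was 17.6% for microtubule and motor genes and 14.3% for collagens and their processing. Of 34 microtubule and motor genes, 6 rose and 0 fell in edgeR (9 and 0 in DESeq2), the unadjusted p was under 0.05 for 13 higher and 0 lower, and the summed fit called 2 higher. They included Tubb2a, a beta-tubulin, at 0.32 on the log2 scale (adjusted p = 0.0269), Dynll1, a dynein light chain, at 0.41 (0.00278) and Map1a, a microtubule-associated protein, at 0.41 (0.0107). Of 35 collagen and collagen-processing genes, 5 rose and 0 fell in edgeR and in DESeq2 while the median was -0.0707 and 3 lower genes had an unadjusted p under 0.05. The direction of this list depended on the mock pair: without mock libraries 1 and 2 it had 3 higher and 10 lower at a median of -0.208, and without mock libraries 3 and 4 it had 5 higher and 0 lower at a median of 0.207. Its summed level was 1948, 2001, 4358 and 3156 CPM in mock and 2079 to 2493 CPM in C-del. Those that rose included Serpinh1, the collagen chaperone (0.33), P4ha1, a prolyl hydroxylase (0.35), and Col5a3 (0.43), none of them called in the summed fit. Among 33 genes of the p53 response, 5 rose and 4 fell (27.3% called), and 3 and 1 in the summed fit. Cdkn1a, a cell cycle inhibitor, measured 7.499, 5.23, 5.12 and 5.56 CPM in mock and 10.7, 11.5, 9.85 and 8.90 CPM in C-del (log2 fold change 0.80, adjusted p = 0.00128; 0.0471 in the summed fit), and Parp3, an ADP-ribosyltransferase of DNA repair, 93.7, 95.8, 90.8 and 93.2 CPM in mock and 136, 134, 119 and 127 CPM in C-del (adjusted p = 4.4e-05; 0.0220). In both genes all C-del libraries were above all mock libraries.

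Genes of the purine nucleotide cycle and creatine were 4 higher and 5 lower of 26 (34.6%). The summed fit called 0 of them (10 at an unadjusted p under 0.05). Ak4, a mitochondrial adenylate kinase, fell from 7.76, 6.84, 5.53 and 7.64 CPM to 5.48, 4.53, 3.62 and 3.95 CPM and Ampd1, the muscle AMP deaminase, had a log2 fold change of -0.35 (adjusted p = 0.0105 and 0.00323; 0.114 and 0.127 in the summed fit). Peroxisome genes were 4 higher and 2 lower of 36 (16.7%), with Mlycd, malonyl-CoA decarboxylase, at 0.29 and Abcd2, a fatty acid transporter of the peroxisome, at -0.42. Autophagy genes were 3 higher and 2 lower of 39 (12.8%), among them the receptor Sqstm1 (0.21) and the mitophagy kinase Pink1 (-0.34); the summed fit called 0 of either list, with 7 and 8 at an unadjusted p under 0.05. Red blood cell markers summed to 436 to 626 CPM in mock and 557 to 1291 CPM in C-del, highest in C-del libraries 1 and 3. Of 6 tested, 0 were called by DESeq2 or by edgeR on the 8 separate libraries, where 1 had an unadjusted p under 0.05. The summed fit called 4 of the 6 higher, and 5 were higher at an unadjusted p under 0.05 there.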
